A study of Homo sapiens with 2 samples.

Results

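The genes described here belong to the bone morphogenetic protein (BMP) pathway. They are the ligands BMP2, BMP4, BMP6 and BMP8B, the receptors BMPR1A and BMPR2, the secreted antagonist GREM1 and the target genes ID1, ID2 and ID3. They were chosen by name, with earlier results of these data known, as all probes that the annotation used here assigns to these 10 genes. This annotation gave 13 probes for 9 of them, out of 47323 probes on the array. It named no probe for BMPR1A, which was not analysed here. Each group had 1 array. In drug-selected cells ID1 and ID3 were higher by 11.1-fold and 4.98-fold, with a second, dimmer ID1 probe at 2.09-fold. ID2 stayed within 2-fold, and of the ligands BMP8B was 2.09-fold higher and BMP6 2.89-fold lower. In the authors' normalized intensities both ligand differences were under 2-fold, at 1.98-fold for BMP8B and 1.90-fold for BMP6.

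BMP ligands are secreted dimers of the transforming growth factor beta superfamily. They bind complexes of type I and type II receptor kinases, which phosphorylate SMAD1, SMAD5 and SMAD9, and these move with SMAD4 into the nucleus and switch on target genes. The ID genes are among the best known of these targets. ID proteins have a helix-loop-helix domain but no DNA-binding region, and they hold E proteins and related transcription factors away from DNA. In the embryo, BMP signals help to set up the neural crest, from which melanocytes arise.

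RNA from A2058 cells, an established human melanoma line, was measured on Illumina bead arrays, with 1 array for the parental and 1 array for the drug-selected cells. The drug-selected cells are A2058 cells selected with carmustine, an alkylating drug. The labels give 100 uM and 6 months, whereas the study's methods describe cycles of drug and drug-free regrowth in which the dose was raised stepwise to 100 uM. Parental cells were, by the study's methods, kept in culture alongside the selection, and a cycle ended once growth had recovered. The sources describe a selected population and no cloning step, and no source used here states whether the harvest for the arrays followed a drug-free step. With 1 array per group no difference has a replicate check, no p-value or standard error across samples can be given, and fewer cells expressing a gene cannot be told apart from less RNA per cell. The median deposited signal was 52.5 on the parental array and 63.1 on the drug-selected array, and 42.5% and 45.6% of probes were detected, that is, had a detection p-value under 0.05 against negative control beads. The drug-selected array was therefore brighter, and the signals were corrected for background and brought to a common distribution before any fold was taken. Folds and log2 differences below are drug-selected over parental after this step. Higher and lower are used for folds above 2 or under 0.5, the limits of the study's methods, and describe 2 arrays only. The spread between probes was taken from the 2 brightest probes of a gene among those detected on both arrays (2892 genes). The SD of the gap between their log2 differences, divided by root 2, was 0.297. This spread covers differences between probes and not those between cultures.

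**Figure D1:**
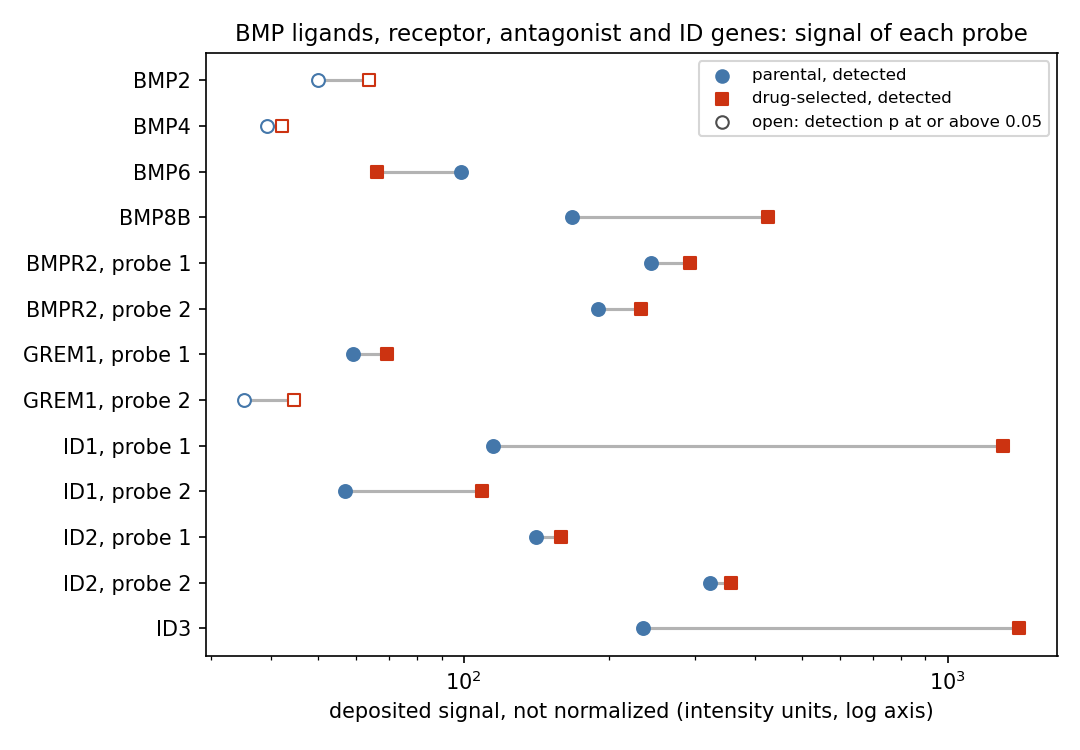
Deposited signal (intensity units, log axis) of each of the 13 probes, with parental cells as circles and drug-selected cells as squares, filled where the probe was detected and joined by a line. ID1 and ID3 have the widest gaps, BMP6 is the only probe with a lower signal on the drug-selected array, and BMP2, BMP4 and 1 probe of GREM1 are open on both arrays.

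Of the 4 ligands, 2 were detected, and they differed in opposite directions. BMP2 and BMP4, the closely related ligands with broad roles in embryonic patterning, were not well above background in either cell population. The deposited signal of the BMP2 probe (ILMN_1722718) was 49.9 in the parental and 63.8 in the drug-selected cells, with detection p-values of 0.213 and 0.0844. The BMP4 probe (ILMN_1709734) had signals of 39.1 and 42.0, with detection p-values of 0.809 and 0.934. No fold is given for these genes, and their RNA was not detectable at this signal rather than shown to be absent.

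BMP6, best known as the ligand that induces the iron hormone hepcidin in the liver, was lower in drug-selected cells. Its probe (ILMN_1747650) had a deposited signal of 98.5 in the parental and 66.3 in the drug-selected cells, although the second array was the brighter one. The normalized log2 signal went from 6.34 to 4.81, a difference of -1.53 or 2.89-fold. The drug-selected value was close to background, with a detection p-value of 0.048 just inside the limit. The size of the difference depended on how background was treated. It ranged from -2.43 to -0.89 on the log2 scale over 11 alternative settings and stayed past 2-fold in 8 of them. Among these, 3 other detection filters and the median over a gene's probes could not change this value. BMP6 has 1 probe, and the same holds for other genes with 1 probe. In the authors' normalized intensities, 116 against 60.9, BMP6 was 1.90-fold lower.

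BMP8B, a ligand of the same branch of the family, was higher in drug-selected cells by a value at the edge of the limit. Its probe (ILMN_2123415) had a deposited signal of 168 in the parental and 426 in the drug-selected cells. The log2 signal was 7.34 and 8.41, a difference of 1.06. Over the 11 alternatives it ranged from 0.93 to 1.49, past 2-fold in 8. In the authors' normalized intensities, 200 against 395, the difference was 1.98-fold. BMP8B has a near-identical neighbour, BMP8A, and cross-binding of their RNA was not tested. The 2 probes named for BMP8A were not detected on either array, with signals of 46.6 and 44.3 in parental and 57.8 and 58.3 in drug-selected cells.

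The type II receptor BMPR2 and the antagonist GREM1 differed little. BMPR2, which phosphorylates the type I receptors, was detected by both of its probes. The brighter probe (ILMN_1789095) had deposited signals of 244 and 293 and the other (ILMN_2070896) 190 and 232 in parental and drug-selected cells. After normalization the log2 differences were -0.18 and -0.16, both smaller than the spread between probes, and the brighter probe turned to 0.26 with no normalization between the arrays. GREM1 encodes gremlin, which binds BMP2 and BMP4 outside the cell and keeps them from their receptors. Its brighter probe (ILMN_1752965) was barely above background, with signals of 59.0 and 69.5, detection p-values of 0.0273 and 0.0195, and a log2 difference of -0.11, which turned to 0.11 with no normalization. The other probe (ILMN_2124585) was not detected on either array.

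The 3 ID genes were all detected and did not behave alike. ID1, whose protein represses the cell cycle inhibitor p16 among other targets, had the largest difference of the genes chosen. Its brighter probe (ILMN_1664861) had a deposited signal of 115 in the parental and 1303 in the drug-selected cells. The log2 signal went from 6.65 to 10.12, a difference of 3.47 or 11.1-fold, which ranked 74 from the top of 12832 detected genes. The other probe (ILMN_1665832) was much dimmer, with signals of 56.7 and 109, and was 2.09-fold higher. Both ID1 probes thus passed 2-fold in the same direction, with different sizes. In parental cells the dimmer probe was near background, with a detection p-value of 0.0442. The median over both probes gave a log2 difference of 2.26, the lowest value over the alternatives, and the highest was 3.89.

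ID3 was represented by 1 probe (ILMN_1732296). Its deposited signal was 235 in the parental and 1403 in the drug-selected cells. The log2 signal went from 7.92 to 10.23, a difference of 2.32 or 4.98-fold, which ranked 224 of 12832 and ranged from 2.17 to 2.73 over the alternatives. ID2 stayed within 2-fold by both of its probes, slightly down after normalization and 0.12 up on the log2 scale with no normalization between the arrays. The brighter probe (ILMN_2086095) had deposited signals of 323 and 357, and the other (ILMN_1793990) 141 and 159. These gave log2 differences of -0.30 and -0.31 after normalization, close to the spread between probes. ID2 was detected in both cell populations, and its probes differed between them by 1.23-fold and 1.24-fold only.

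The promoters of ID1, ID2 and ID3 are shown from 250 bases before to 50 bases after the RefSeq start (GRCh38.p14), 5′ to 3′ on the strand of the gene. Capitals mark matches on either strand to 4 short motifs.
ID1, chr20:31605039-31605338, plus strand: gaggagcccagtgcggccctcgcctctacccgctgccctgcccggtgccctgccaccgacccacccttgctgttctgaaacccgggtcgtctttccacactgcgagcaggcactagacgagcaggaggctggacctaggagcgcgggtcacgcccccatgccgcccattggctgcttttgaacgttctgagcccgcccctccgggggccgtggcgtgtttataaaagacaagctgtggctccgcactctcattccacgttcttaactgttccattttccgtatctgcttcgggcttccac
ID2, chr2:8681806-8682105, plus strand: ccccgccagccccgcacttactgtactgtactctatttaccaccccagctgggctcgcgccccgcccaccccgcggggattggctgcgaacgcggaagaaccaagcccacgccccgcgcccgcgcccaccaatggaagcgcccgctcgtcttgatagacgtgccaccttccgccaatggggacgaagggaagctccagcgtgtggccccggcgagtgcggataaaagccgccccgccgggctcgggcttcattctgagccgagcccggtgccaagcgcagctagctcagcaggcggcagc
ID3, chr1:23559452-23559751, minus strand: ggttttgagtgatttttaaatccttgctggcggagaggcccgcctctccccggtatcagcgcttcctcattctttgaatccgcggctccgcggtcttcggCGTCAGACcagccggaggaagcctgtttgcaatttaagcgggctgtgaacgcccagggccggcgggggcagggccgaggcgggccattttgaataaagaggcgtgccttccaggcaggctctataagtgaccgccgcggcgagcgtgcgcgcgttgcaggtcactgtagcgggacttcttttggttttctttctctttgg
The motifs were GGCGCC, a GC-rich sequence bound by SMAD1 and SMAD5, GTCTG, which holds the core of the SMAD binding element, TGACG, part of the cAMP response element, and CACGTG, an E-box. The ID1 and ID2 windows held none of them. The ID3 window held TGACG from position -150 and GTCTG from position -147, counted from the RefSeq start, both read on the opposite strand, and they overlap. Over 35116 promoters of the same length, 19.2% held GGCGCC, 45.3% GTCTG, 24.6% TGACG and 7.26% CACGTG. These matches describe the letters of the window only. Sequence outside the windows was not searched, so a missing motif here says nothing about sites elsewhere. The content of G and C was 62.7% for ID1, 69.0% for ID2 and 59.7% for ID3.

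Of the genes chosen, 7 of the 9 with a probe were detected on at least 1 array, all 7 on both. Of these, 3 were higher (ID1, ID3 and BMP8B), 1 was lower (BMP6) and 3 were within 2-fold (BMPR2, GREM1 and ID2). The background shares among the 12832 detected genes were 7.12% for higher and 5.84% for lower. The genes were chosen with earlier results of these data known, so counts above these shares cannot be read as an excess. The median log2 difference of the 7 genes was -0.11, against -0.0034 over all genes. ID1 and ID3 remained past 2-fold in 11 of 11 alternatives, whereas BMP8B and BMP6 each fell under 2-fold in 3. These 11 include the 3 other detection filters, which left the values of these genes unchanged.

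**Figure D2:**
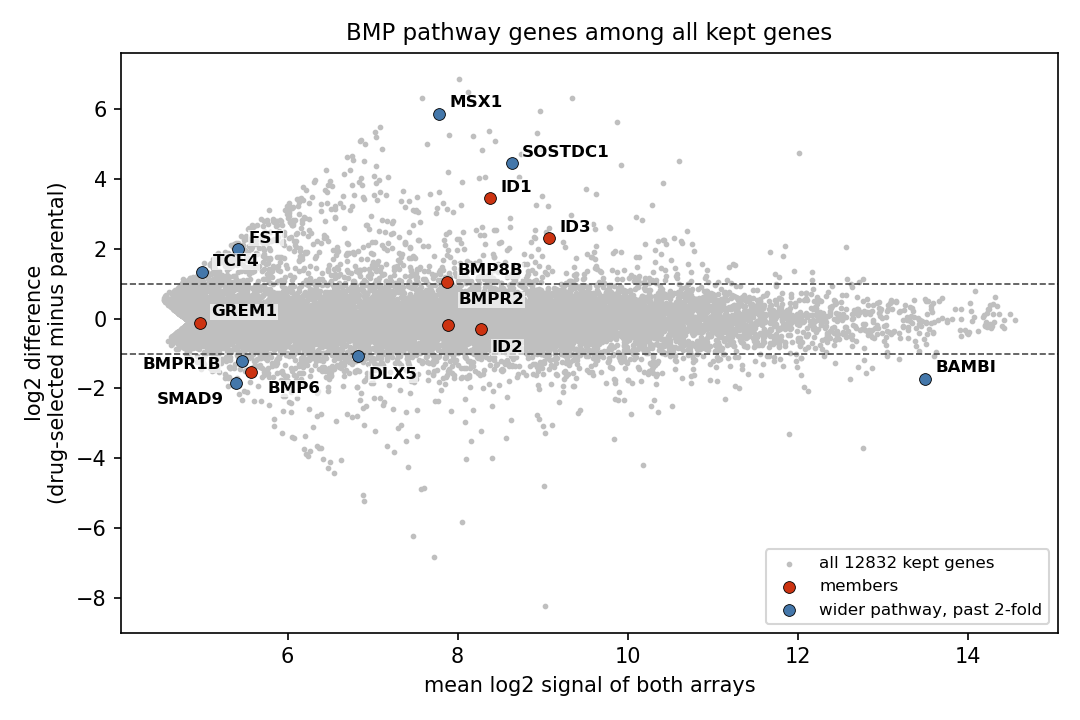
Log2 difference (drug-selected minus parental) against the mean log2 signal of both arrays for the 12832 detected genes in grey, with the 7 detected BMP ligand, receptor, antagonist and ID genes in red and genes of the wider pathway past 2-fold in blue; dashed lines mark 2-fold. ID1 and ID3 lie well above the band of most genes, and BMP6 lies at the dim end where the fold varied with the treatment of background.

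**Figure D3:**
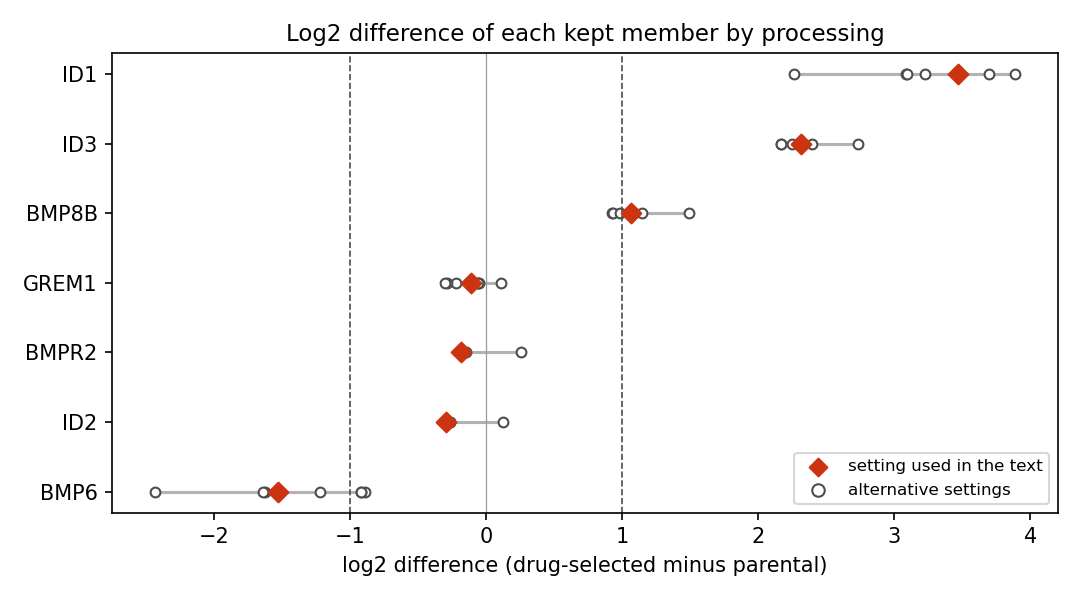
Log2 difference (drug-selected minus parental) of the 7 detected genes under the setting used in the text (diamonds) and under up to 11 alternative settings (circles), with dashed lines at 2-fold. ID1 and ID3 stay past 2-fold throughout, and BMP8B and BMP6 straddle the limit.

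The other genes of the pathway were taken from lists set by textbook role, with earlier results of these data known. Of 61 such genes, 59 had a named probe and 38 were detected, of which 4 were higher and 4 lower, and their median log2 difference was -0.03. These 4 make 10.5% of the 38 in each direction, against 7.12% higher and 5.84% lower over all 12832 detected genes. Of the higher genes, FST, MSX1 and TCF4 were detected in drug-selected cells only. When detection on both arrays was required, 1 was higher and 3 were lower. None of the 9 other BMP-family ligands with a probe was detected on either array, among them BMP5 and BMP7. Among the genes that were detected, the largest differences were at both ends of the pathway, in an extracellular antagonist and in a target gene.

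Of the other receptors and co-receptors, 8 of 9 were detected and 1 was lower. BMPR1B, a type I receptor, had deposited signals of 86.5 in the parental and 67.9 in the drug-selected cells by 1 probe, a log2 difference of -1.20, and was not detected by its other probe. It ranged from -1.96 to -0.68 over the 11 alternatives and was under 2-fold in 4 of them. ACVR1, another type I receptor, had signals of 2064 and 1849 and a log2 difference of -0.58. ACVR2A, a type II receptor shared with activins, was within 2-fold, with log2 differences of -0.86 and -0.53 in its probes. The co-receptor ENG was within 2-fold too, at 0.48.

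Of the other extracellular antagonists and modulators, 8 of 15 were detected and 2 were higher. SOSTDC1, a secreted protein that binds BMPs and also Wnt co-receptors, had deposited signals of 102 in the parental and 2179 in the drug-selected cells. Its log2 signal went from 6.40 to 10.87, a difference of 4.47 or 22.1-fold, which ranked 30 of 12832 and ranged from 4.01 to 4.89 over the alternatives. FST encodes follistatin, which binds activins and, less tightly, BMPs. It was near background in the parental cells (signal 44.2, detection p-value 0.542) and was at least 2.88-fold higher in drug-selected cells (signal 135), by 1 of 2 probes. Folds given as at least a value are bounds under the normalization used here and not across settings. Without the bound, the log2 difference of FST ranged from 1.11 to 3.70 over 10 alternatives, past 2-fold in all 10. The chordin partner TWSG1, the antagonist NBL1, the activin-binding FSTL3 and the chordin-cleaving protease BMP1 were within 2-fold, at log2 differences of 0.24, 0.28, 0.64 and 0.40.

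Among the SMADs, SMAD9 was lower and SMAD4 and SMAD5 were within 2-fold. SMAD9 was detected in parental cells only, by both probes. The brighter one had signals of 97.7 and 55.2 and was at least 2.89-fold lower, and the other, with 73.8 and 61.6, at least 1.84-fold lower, as bounds under this normalization. Without the bound, the brighter probe's log2 difference ranged from -3.38 to -1.02 over 10 alternatives. SMAD5 had a log2 difference of -0.47 and SMAD4, shared with the transforming growth factor beta branch, -0.03. SMAD1 was not detected by either of its 2 probes. Of the intracellular and membrane inhibitors, 7 of 8 were detected and 1 was lower. That gene was BAMBI, a decoy receptor without a kinase domain, with deposited signals of 18757 in the parental and 7231 in the drug-selected cells. Its log2 difference of -1.72, or 3.28-fold, ranged from -1.80 to -1.38 over the alternatives. The inhibitory SMADs, which are themselves switched on by BMP signals, stayed within 2-fold, at 0.50 for SMAD6 and at -0.09 and 0.28 in the probes of SMAD7.

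The other target genes went in both directions, with 9 of 11 detected, 1 higher and 1 lower. Their median log2 difference was -0.58, or -0.19 with bounds for genes that 1 array missed. MSX1, a homeobox gene of neural crest and limb, was near background in the parental cells (signal 55.4, detection p-value 0.0701) and had a signal of 1964 in drug-selected cells. It was at least 56.9-fold higher under this normalization and ranked 6 of 12832. Without the bound its log2 difference was 5.88 and ranged from 4.78 to 7.04 over 10 alternatives, past 2-fold in all 10. DLX5, a homeobox gene of bone and neural crest, was lower, with signals of 170 and 127 and a log2 difference of -1.07, which was under 2-fold in 4 of 11 alternatives. ID4, the remaining ID gene, lay just inside the limit at -0.996, with signals of 132 and 107. ATOH8 had a log2 difference of -0.80 and HEY1, whose brighter probe had signals of 5535 and 7821, one of 0.15. Of the 3 E proteins that ID proteins bind, TCF3 and TCF12 were within 2-fold at 0.02 and -0.17. TCF4 was counted as higher, with signals of 40.2 and 94.8, but it was not detected in parental cells, its bound was at least 1.71-fold, under the limit, and it was past 2-fold in 7 of 10 alternatives.

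**Figure D4:**
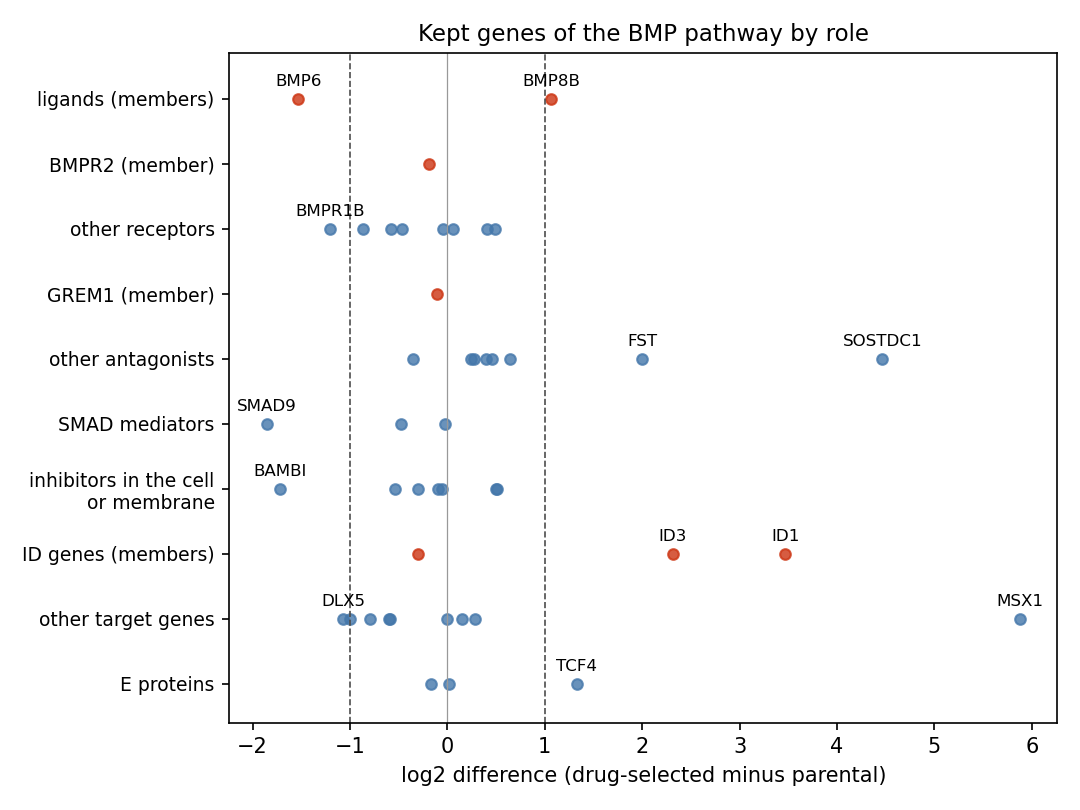
Log2 difference (drug-selected minus parental) of the 45 detected genes of the pathway, each a point, grouped by role, with the genes chosen in red, the wider lists in blue and dashed lines at 2-fold. Most receptors, SMADs and inhibitors lie between the lines, and SOSTDC1, ID1, ID3 and MSX1 lie far to the right.

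The label of the cells was compared with lineage markers on the same arrays. Of 6 detected melanocyte markers, 5 were lower in drug-selected cells. TYR was lower by 303-fold, with a drug-selected signal of 69.0 near background (log2 difference -9.34 to -7.16 over 11 alternatives), and MLANA by 27.7-fold. PMEL was lower by 13.2-fold and MITF by 6.45-fold by its brightest probe. TYRP1 was 2.17-fold lower, past 2-fold in 7 of 11 alternatives, and SOX10 had signals of 2356 and 1684. A second detected probe of MITF, near background with signals of 62.4 and 68.0, was 1.26-fold lower, and the median over both gave a log2 difference of -1.51. The normalized signals summed over 7 such genes were 43407 and 4140 on the parental and drug-selected arrays. Of 9 detected fibroblast markers 6 were higher and 2 lower. FAP was 5.50-fold and ACTA2 3.07-fold higher. PDGFRA was 2.60-fold higher by its brighter probe, past 2-fold in 8 of 11 alternatives. PDGFRB was at least 6.65-fold higher under this normalization (log2 difference without the bound 2.06 to 5.02 over 10 alternatives). THY1 was at least 2.58-fold and COL3A1 at least 2.31-fold higher, again as bounds. Without the bound they were past 2-fold in 9 and 7 of 10 alternatives. The lower genes were DCN, by 8.32-fold by its only detected probe, and LUM, by 3.06-fold. The signals summed over 10 fibroblast markers were 3895 and 2345, and COL1A2 was not detected on either array. The brightest gene in that sum was LUM, at log2 signals of 11.58 and 9.97. All sums here include genes that were not detected and follow their brightest genes, so they do not measure cell-type content. Of the epithelial markers, 1 of 3 detected was higher (KRT8), with sums of 139 and 325 over 6 genes and CDH1, KRT5 and KRT14 not detected. Of the endothelial ones, 2 of 3 were higher (TEK and PECAM1), with sums of 140 and 322 over 5 genes and CDH5 and KDR not detected, and PECAM1 was past 2-fold in 8 of 11 alternatives. Of the leukocyte ones, 2 of 2 were higher (CD14 and LYZ), with sums of 126 and 619 over 4 genes and PTPRC and CD3E not detected. LYZ was under 2-fold as a bound and past 2-fold in 4 of 10 alternatives, and its other detected probe was within 2-fold at -0.15. These lists moved between the same arrays as the BMP pathway genes, and their part in the differences of ID1, ID3, SOSTDC1 and MSX1 was not tested.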

How the data were processed

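Total RNA of 1 parental and 1 drug-selected culture was hybridised to HumanHT-12 bead arrays. The authors deposited average probe signals, linear intensity values not normalized between the arrays, with a detection p-value deposited beside each signal. A further table holds the authors' normalized intensity, by a method no source used here names. The labels gave the conditions. The study's methods define a ratio by names that match neither label, so drug-selected over parental was used.

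Signals were corrected by normexp with background inferred from the detection p-values (limma 3.58.1, R 4.3.3, offset 16), quantile normalized and log2-transformed. Probes with a detection p-value under 0.05 on at least 1 array were kept, here called detected. Each gene stood by its kept probe of highest mean signal. Where 1 array missed a probe, the fold is a bound, taken against the probe's own signal or the lowest detected signal of that array, whichever was higher (log2 4.89 parental, 4.80 drug-selected), while counts use the values without bounds. A probe annotation with current gene symbols gave the gene names (1 symbol for 30113 probes, several for 8, which were not used). The named genes are all those chosen, every gene of the wider and marker lists past 2-fold, and others picked after their values were seen as examples near the limit or of each role. The genes and lists were chosen with earlier results of these data known. Counts and plots were made in Python 3.11.15. The script was tested on simulated data. The number of arrays limits the precision, and no test was run.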

Additional observations from a re-analysis of the deposited data

How the results depend on the processing

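The 13 alternatives were other normexp offsets (50 or 0), no normexp, no between-array normalization, scaling on the 75th percentile or on the median, the authors' normalized intensity, 3 other detection filters, limits of 1.5-fold and 3-fold, and a gene's median probe. The count of higher genes among those chosen was 2 or 3 under all of them, with ID1 and ID3 in it each time. The count of lower ones fell from 1 to 0 with an offset of 50, with no normexp, in the authors' intensities and at 3-fold. In the wider pathway 2 genes were lower instead of 4 with an offset of 50, with no normexp, with no normalization, in the authors' intensities and at 3-fold, 9 with an offset of 0 and 8 at 1.5-fold, and 1 was higher instead of 4 when detection on both arrays was required. Over all genes, 914 higher and 749 lower became 1501 and 1337 with an offset of 0, 1817 and 341 with no normalization, 1970 and 2037 at 1.5-fold, and 454 and 226 at 3-fold. The lower count became 472 with an offset of 50 and 480 with no normexp. With no normalization 84.2% of the calls were higher, against 55.0% in the text, and the median of all genes moved by 0.37 on the log2 scale. BMPR2, ID2 and GREM1, all within 2-fold, then turned to 0.26, 0.12 and 0.11, and relative to that median they were -0.12, -0.25 and -0.26. None of the 352 alternative values of the 33 detected named genes turned a call to the other direction, and 246 moved by less than the spread between probes. Many of the 246 only repeat the value in the text. The 3 other detection filters left the value of each kept gene unchanged, and the median probe did so for genes with 1 kept probe. What caused the changes between settings was not tested. No paired analysis was possible because each group had 1 array. Dim probes such as BMP6, GREM1 and SMAD9 are limited by their signal over background.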
